A study of Homo sapiens with 6 samples.

Results

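Heat shock proteins and cytosolic chaperones were examined in BCWM1 cells. This established human line comes from Waldenström macroglobulinemia, a cancer of antibody-secreting B-lineage cells. The set names 36 genes, chosen by symbol, and takes every probe set whose platform annotation gives one of them as its only gene symbol. This found 66 probe sets of 30 genes, of the 19775 genes that have such a probe set on the array. HSPA1A, HSPA1B, HSPA8 and TCP1 are listed only on probe sets that name several genes, and HSF2 and AHSA1 on no probe set of the annotation used, so no value is given for these 6 genes. Total RNA was measured on 6 arrays, 3 of parental BCWM1 cells and 3 of BCWM1 cells labelled as mutated. By the title of the series the mutation, written C1013G, is in CXCR4, a chemokine receptor; how the position is numbered is not said. No drug or heat treatment is named for either group, and the labels leave out how the mutated cells were derived and whether they are 1 clone. Nothing states that replicates were grown separately, so every p-value rests on a spread that may be technical.

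Chaperones help proteins fold and keep unfolded ones from clumping. J proteins of the HSP40 family deliver clients to HSP70, which binds and releases them with ATP. Cochaperones such as STIP1 pass clients on to HSP90, and the TRiC ring encloses actin, tubulin and others while they fold. Under heat or other protein stress the transcription factor HSF1 binds heat shock elements, repeats of the letters NGAAN in alternating orientation, and raises transcription of many of these genes. Plasma cells and their tumours, which secrete much antibody, are known for a high demand on protein folding.

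The promoter windows show how far the set shares this element. RefSeq windows on GRCh38.p14, from 250 bases before to 50 after each annotated start, were available here for 32 of the 36 genes. They were searched for 3 units in a row, GAA, TTC and GAA with NN between neighbours, and for the reverse complement, TTC, GAA and TTC, so both strands were read. At least 1 window held this 13-base motif in 8 of the 32 genes (25%), against 166 of 27305 genes in the whole promoter table (0.608%). Stretches around these matches are printed here because the motif is a feature that these 8 genes have in common and that its names did not use. The match is in capitals, with up to 8 bases on each side, and positions count from the annotated start, with −1 the base before it.

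CHORDC1 (chr11:90223079-90223117, minus strand, 3 overlapping matches from −60 to −38): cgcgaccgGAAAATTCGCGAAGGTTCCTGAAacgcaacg
HSP90AA1 (chr14:102087112-102087140, minus strand, from −88): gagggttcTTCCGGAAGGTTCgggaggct
HSP90AB1 (chr6:44247770-44247798, plus strand, from −165): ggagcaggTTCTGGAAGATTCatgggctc
HSP90AB1 (chr6:44247823-44247851, plus strand, from −112): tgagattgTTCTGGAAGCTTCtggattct
DNAJA1 (chr9:33025268-33025296, plus strand, from 4 after the start): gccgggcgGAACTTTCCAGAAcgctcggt
HSPA6 (chr1:161524458-161524486, plus strand, from −74): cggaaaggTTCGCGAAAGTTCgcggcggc
HSPA8 (chr11:123062171-123062199, minus strand, from −55): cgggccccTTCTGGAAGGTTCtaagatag
HSPA8 (chr11:123062346-123062374, minus strand, from −230): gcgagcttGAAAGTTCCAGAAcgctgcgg
HSPD1 (chr2:197500060-197500090, minus strand, 2 overlapping matches from −245): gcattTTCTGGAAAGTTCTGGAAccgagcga
DNAJB6 (chr7:157336865-157336893, plus strand, from −131): agagccgaGAACCTTCGCGAAggtggggc

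The matches of HSP90AA1, HSP90AB1 and HSPD1 lie in the window of 1 of several annotated starts of the gene. The shorter form of 2 units, GAA and TTC with NN between them in either order, is its own reverse complement and part of every 13-base match. It was in 18 of the 32 genes (56.2%), against 16.2% of all genes in the table. For 3 members without the longer motif, short matches are shown because these genes had the largest falls, described next. For DNAJB1 and HSPB1 only matches that begin before the start are listed.

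STIP1 (chr11:64186176-64186199, plus strand, from 14 after 1 of its starts): ctagtaggTTCCAGAAggcggcgc
DNAJB1 (chr19:14518459-14518482, minus strand, from −77): gcggggcgGAAGGTTCtggagggg
DNAJB1 (chr19:14518429-14518452, minus strand, from −47): gggctctgGAAGCTTCcgccggac
HSPB1 (chr7:76302483-76302506, plus strand, from −182): taacgagaGAAGGTTCcagatgag

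These are matches of letters only, and no binding was measured in this series. In a second list of 95 chaperone genes outside the set, 1 of 77 genes with a window held the longer motif (1.3%), SERPINH1, which encodes a collagen chaperone. HSPD1 and HSPE1 stand head to head, and the window of 1 HSPD1 start shares 204 bases with the window of HSPE1.

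In mutated cells 3 of 4 HSP70 and HSP110 genes outside the inducible ones fell, as did 2 of 3 HSP90 genes, 3 of 4 HSP90 cochaperones and 2 of 4 HSP40 genes. Among the chaperonins 1 of 7 TRiC subunits fell, near the share of all genes, and 0 of 2 mitochondrial ones. A gene was represented by its brightest tested probe set, and 29 of the 30 genes with a probe set were bright enough to test, in both groups. The exception was CRYAB, a small heat shock protein, whose 3 parental intensities ran from 16.4 to 17.8 and whose 3 mutated ones from 10.9 to 16.3. Of the 29, 12 fell, 4 rose and 13 did not pass (limma with Benjamini-Hochberg adjustment over all tested probe sets, threshold 0.05). The 12 are 41.4% of the tested members, where 18.9% of all 13644 genes tested were called lower. The 4 are 13.8%, where 30.1% of all genes were called higher. The median log2 change of the members was −0.12, against 0.038 over all genes tested.

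Over probe sets rather than genes, 26 of 59 tested fell (44.1%, against 16.6% of all probe sets) and 7 rose (11.9%, against 30.9%). The 3 mutated values lay below all 3 parental values in 18 of the 29 genes (24.8% of all genes) and above them in 4 (36.3% of all genes). The balance of all genes depends on scaling: of all gene calls, 61.5% were higher as deposited, 49.4% with quantile normalization and 46.1% with median centring of each array. With quantile normalization 13 members fell and 4 rose, where 25.6% of all genes fell and 24.9% rose. With median centring 16 fell and 3 rose, where 26.1% of all genes fell and 22.4% rose. Of the 16 members called, 8 kept direction and call under every other setting in which they were tested. STIP1, HSPB1, DNAJB1, DNAJA1 and HSP90AA1 fell, and HSPA2, DNAJB4 and HSPA6 rose. Of these, STIP1, HSPB1, DNAJB1 and HSPA2 were tested in 16 of the 17 other settings. They have no tested probe set whose name lacks the suffixes _s_at and _x_at. HSPH1 and CHORDC1 lost their call only on such probe sets.

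**Figure D1:**
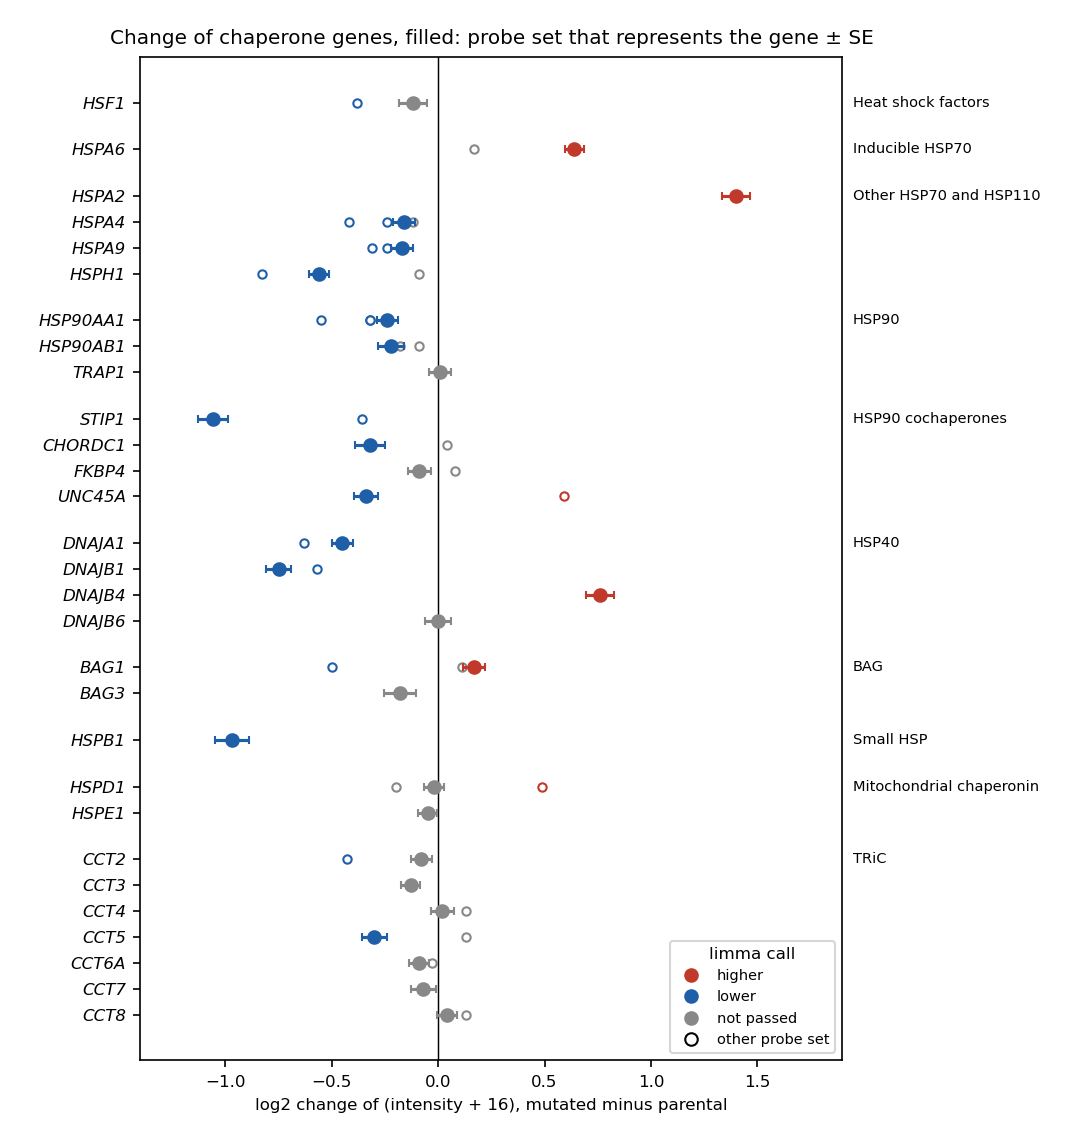
Log2 change of intensity + 16 between mutated and parental cells (horizontal axis) for the 29 tested members, ordered by role; filled points with bars are the probe set that represents the gene ± SE, open points its other tested probe sets (that of DNAJB4 lies under its filled point), and colour gives the limma call. STIP1 (−1.06) and HSPB1 (−0.97) lie farthest left and HSPA2 (1.40) farthest right, while the filled points of the TRiC subunits stay between −0.30 and 0.04.

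HSF1 itself was dim. Its representing probe set gave 85.8, 88.4 and 89.3 in parental and 75.2, 88.1 and 75.8 in mutated cells, and the groups overlapped (log2 change −0.12; limma, adjusted p = 0.18). On its other probe set, the parental values of 66.1, 58.7 and 49.2 lay above the mutated values of 44.7, 36.4 and 41.5 (log2 change −0.38; limma, adjusted p = 0.020). HSF1 also passed as the mean of both (−0.25; limma, adjusted p = 0.0060), with quantile normalization (−0.32; 0.0068) and without mutated replicate 2 (−0.18; 0.047), so its call depends on these choices. mRNA levels do not show how active the HSF1 protein is, since heat shock activates it without new synthesis.

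The HSP70 family moved in both directions. HSPA2, an HSP70 best known from testis, had the largest change of the set: 55.2, 57.5 and 52.7 in parental against 187, 168 and 160 in mutated cells. Every mutated sample was far above every parental one, with a change of 1.40 on the log2 scale (SE 0.0678; limma, adjusted p = 1.5e-05). HSPA6, a strictly inducible HSP70, read 438, 430 and 432 in parental and 699, 682 and 671 in mutated cells on its brighter probe set. The groups were apart there, and the change was 0.64 on the log2 scale (SE 0.0451; limma, adjusted p = 8e-05). Its dimmer probe set, at 141, 123 and 112 against 144, 147 and 136, did not pass (0.17). HSPA6 has a near-identical relative, HSPA7, and other HSP70 genes are close in sequence, so which transcripts these probes read is uncertain.

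HSPH1, known as HSP110, is a nucleotide exchange factor that makes HSP70 release its bound ADP. It read 2723, 2792 and 2769 in parental and 1848, 1829 and 1927 in mutated cells. Both groups were tight and did not overlap (log2 change −0.56, SE 0.0470; limma, adjusted p = 0.00017). The suffix _s_at marks probes shared by several transcripts, and _x_at marks probes that may also match other sequences. This HSPH1 probe set has the suffix _s_at. So has the HSPA2 probe set. An HSPH1 probe set with the suffix _x_at gave −0.83. The plain one, with neither suffix, gave −0.09, from 64.7 to 122 in all 6 samples, and did not pass. HSPA4, a relative of HSP110, was represented by a probe set with the suffix _x_at, at 2939, 3051 and 2782 against 2585, 2617 and 2622 (log2 change −0.16; limma, adjusted p = 0.041). Its other probe sets gave −0.42, −0.24 and −0.12, the last not passed.

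HSPA9, the HSP70 of the mitochondrial matrix, gave 3664, 3933 and 3689 in parental and 3403, 3352 and 3260 in mutated cells (log2 change −0.17; limma, adjusted p = 0.033). Its other tested probe sets also fell (−0.24 and −0.31). The groups did not overlap on the brightest probe set of either HSPA4 or HSPA9, but the differences were small. The HSPA4 call was lost without any 1 sample except parental replicate 3 (limma, adjusted p up to 0.11), and the HSPA9 call without any 1 of the 6 (0.056 to 0.093). Both were also lost with a replicate block (0.074 and 0.062) and without the filter on dim probe sets (0.086 and 0.071).

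Both cytosolic HSP90 genes were lower. HSP90AA1, the stress-inducible form, read 8818, 9433 and 9177 in parental and 7709, 7857 and 7629 in mutated cells. All mutated samples were below all parental ones (log2 change −0.24, SE 0.0490; limma, adjusted p = 0.0073). Its other 3 probe sets fell too (log2 changes of −0.32, −0.32 and −0.55), so the size of the change differed between probe sets and not its direction. HSP90AB1, the constitutive form, gave 7048, 7079 and 6704 against 6267, 6052 and 5577 (log2 change −0.22; limma, adjusted p = 0.024). Its other probe sets did not pass (−0.18 and −0.09). The HSP90AB1 call was lost without parental replicate 1 or 2 (limma, adjusted p = 0.073 for both), mutated replicate 2 (0.054) or mutated replicate 3 (0.051), and without the filter (0.052). TRAP1, the mitochondrial HSP90, showed overlapping groups: 2370, 2467 and 2357 in parental against 2512, 2322 and 2392 in mutated cells (log2 change 0.01).

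HSP90 cochaperones included the largest fall of the set. STIP1, the adaptor that holds HSP70 and HSP90 together, read 789, 698 and 666 in parental and 336, 327 and 341 in mutated cells. The highest mutated value was well under the lowest parental one, with a change of −1.06 on the log2 scale (SE 0.0715; limma, adjusted p = 6.5e-05). Its dimmer probe set fell from 162 ± 15.3 to 123 ± 10.1 (SD, n = 3; log2 change −0.36; limma, adjusted p = 0.014), so the probe sets give one direction and different sizes. CHORDC1, a cochaperone that binds the ATPase part of HSP90, gave 1443, 1369 and 1526 against 1102, 1116 and 1249. The groups were apart (log2 change −0.32; limma, adjusted p = 0.010). Its other probe set, at 27.0 to 32.4 in all 6 samples, did not show the fall (0.04, not passed).

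UNC45A, a chaperone of myosin that also binds HSP90, had probe sets that moved in opposite directions. The brighter one, with the suffix _s_at, read 332, 318 and 310 in parental and 259, 253 and 238 in mutated cells (log2 change −0.34; limma, adjusted p = 0.0028). The dimmer one, with the suffix _x_at, read 46.4, 37.2 and 46.5 against 72.8, 64.3 and 84.1 (0.59; limma, adjusted p = 0.0037). As the mean of both UNC45A gave 0.13 and did not pass (limma, adjusted p = 0.10), so its direction rests on the choice of probe set. FKBP4, an immunophilin that escorts steroid receptors with HSP90, read 741, 738 and 704 against 701, 701 and 651 (log2 change −0.09) and did not pass. Its other tested probe set lay apart the other way, at 221, 215 and 229 against 236, 239 and 232 (0.08), and did not pass either.

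**Figure D2:**
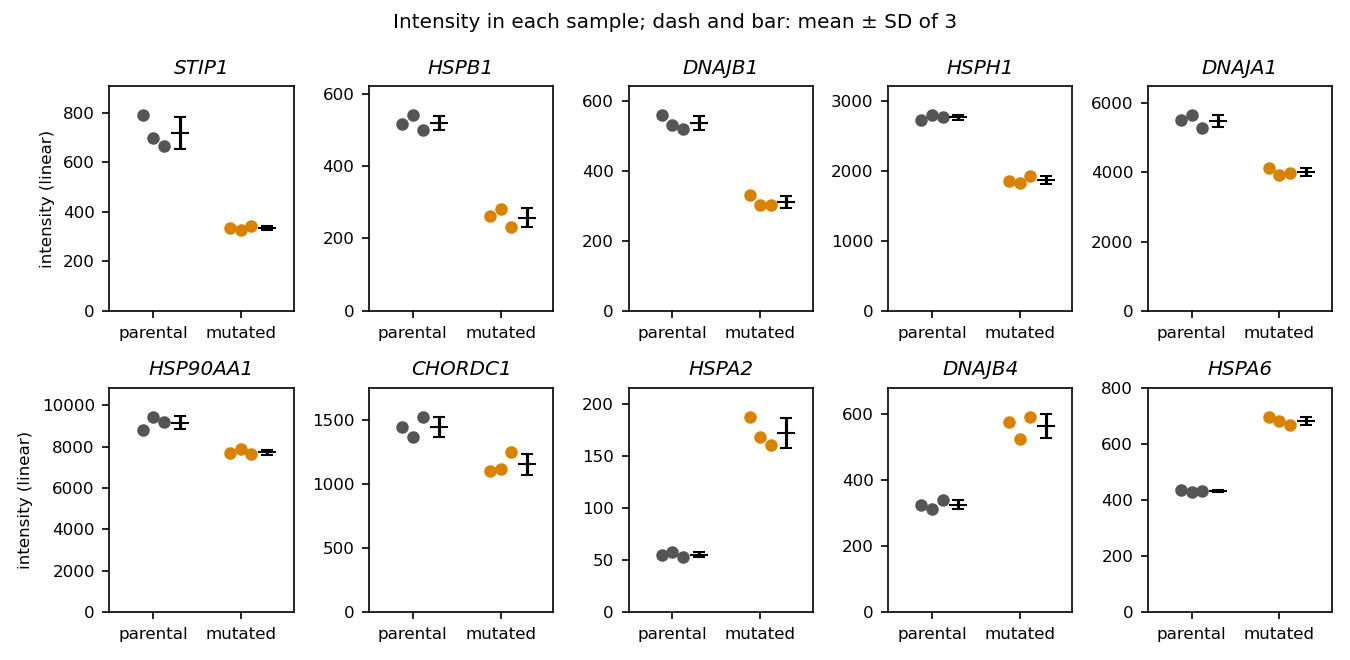
Linear intensity (vertical axes, from 0) of 10 called members in each of the 3 parental (grey) and 3 mutated (orange) samples, on the probe set that represents each gene; black dashes with bars are the mean ± SD of 3. In STIP1, HSPB1, DNAJB1, HSPH1, DNAJA1, HSP90AA1 and CHORDC1 all mutated points lie below all parental points, and in HSPA2, DNAJB4 and HSPA6 above them.

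J proteins split. DNAJB1, the inducible partner of HSP70 that also feeds back on HSF1, read 560, 533 and 521 in parental and 332, 302 and 303 in mutated cells. The groups were far apart (log2 change −0.75, SE 0.0590; limma, adjusted p = 0.00012), and the other probe set gave −0.57. DNAJA1, an abundant cytosolic J protein, read 5517, 5646 and 5284 against 4137, 3928 and 3982 (log2 change −0.45, SE 0.0510; limma, adjusted p = 0.00062). It fell further, by 0.63, on the other probe set. DNAJB4, a relative of DNAJB1, rose: 323, 313 and 339 in parental against 576, 522 and 590 in mutated cells. The log2 change was 0.76 (SE 0.0643; limma, adjusted p = 0.00017) and 0.75 on its second probe set, with no overlap on either. DNAJB6, which keeps aggregation-prone proteins soluble, stood at 304, 318 and 313 against 290, 328 and 319, and the groups overlapped.

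HSPB1, the small heat shock protein HSP27, which holds unfolded clients without ATP, read 516, 540 and 500 in parental and 263, 281 and 230 in mutated cells. No mutated sample reached the parental range (log2 change −0.97, SE 0.0788; limma, adjusted p = 0.00014), and no other probe set of this gene was listed. BAG3, a partner of HSP70 in stress-induced autophagy, read 1308, 1199 and 1259 against 1177, 1145 and 1000. Its groups were apart but it did not pass (log2 change −0.18; limma, adjusted p = 0.094).

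BAG1, another nucleotide exchange factor of HSP70, had probe sets that were called in both directions. The brightest read 786, 832 and 784 in parental and 912, 925 and 870 in mutated cells (log2 change 0.17; limma, adjusted p = 0.035). The dimmest fell, with 90.7, 85.3 and 83.0 against 51.4, 56.1 and 61.0 (−0.50; limma, adjusted p = 0.0011), and the third did not pass (0.11). Averaged over its probe sets BAG1 gave −0.08 (limma, adjusted p = 0.15), and with median centring 0.09 (0.26). Its call was also lost without parental replicate 1 or 3 or mutated replicate 1 or 2 (limma, adjusted p from 0.096 to 0.11), with a replicate block (0.054) and without the filter (0.075).

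The chaperonins, double rings that fold a protein inside their cavity, were among the members that changed least. HSPD1, the mitochondrial ring protein HSP60, read 10948, 11581 and 11115 in parental and 11131, 11021 and 10907 in mutated cells, and the groups overlapped (log2 change −0.02). A dim HSPD1 probe set rose, from 42.8, 45.8 and 45.1 to 72.9, 75.4 and 59.7 (0.49; limma, adjusted p = 0.0030), while the other bright one gave −0.20 and did not pass. HSPE1, its lid HSP10, read 4944, 5010 and 4978 against 4918, 4800 and 4697 (−0.05) and did not pass, though every mutated value was below every parental one. Thus neither gene of the head-to-head pair passed on its brightest probe set.

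Of the 7 TRiC subunits with a value, 1 fell and 6 did not pass, with a median log2 change of −0.08 and a range from −0.30 to 0.04. The subunit that fell was CCT5, with 4052, 4388 and 3848 in parental against 3309, 3303 and 3342 in mutated cells (log2 change −0.30; limma, adjusted p = 0.0070). A dim second CCT5 probe set gave 0.13 and did not pass, and as the mean of both CCT5 gave −0.08 (limma, adjusted p = 0.32). CCT3 missed the threshold with 5171, 5367 and 5215 against 4832, 4851 and 4702 (−0.13; limma, adjusted p = 0.055). CCT2 (−0.08), CCT6A (−0.09), CCT7 (−0.07), CCT4 (0.02) and CCT8 (0.04) did not pass on their representing probe sets, and the groups overlapped in CCT4, CCT7 and CCT8. A dimmer CCT2 probe set fell from 1710 ± 151 to 1267 ± 106 (SD, n = 3; −0.43; limma, adjusted p = 0.0079). With median centring 4 of the 7 subunits fell and the median was −0.16, so how many subunits pass depends on the scaling.

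Among the 21 members with several tested probe sets, these agreed in sign in 15. Probe sets of the same gene were called in opposite directions in 2, UNC45A and BAG1. In HSPH1, CHORDC1 and CCT5 a dimmer probe set did not show the fall of the brightest. A dimmer probe set of HSPA4 (−0.12) and of HSP90AB1 (−0.09) also did not pass, with overlapping groups.

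Members were also set beside their calls by promoter motif, as a description. The 13-base motif was in 4 of the 12 genes that fell, each of which had a window: CHORDC1, HSP90AA1, HSP90AB1 and DNAJA1. It was in 1 of the 4 that rose, HSPA6, and in 2 of the 10 with a window that did not pass, HSPD1 and DNAJB6. The remaining gene with a match, HSPA8, has no probe set of its own. STIP1, HSPB1, DNAJB1 and HSPH1, which fell most, held no 13-base match, and the first 3 of them held the short form. That these letters are missing from a window says nothing about sites elsewhere.

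Of 77 chaperone genes tested outside the set, 21 rose (27.3%, against 30.1% of all genes), 15 fell (19.5%, against 18.9%) and 41 did not pass, with a median log2 change of 0.05. Both shares are near those of all genes, and their difference from the members was not tested. The balance depends on the setting: 14 rose and 20 fell with quantile normalization, 10 and 21 with median centring, and 12 and 15 with a replicate block. Of all genes, 24.9% rose and 25.6% fell with quantile normalization, 22.4% and 26.1% with median centring, and 28.1% and 17.8% with the block. Without parental replicate 3, 11 rose and 13 fell, without mutated replicate 1 these were 13 and 12, and without mutated replicate 2 they were 13 and 13. In these fits 25.2% to 25.9% of all genes rose and 15.4% to 16.2% fell. Other HSP90 cochaperones fell in 4 of 11 (36.4%, against 18.9% of all genes) and rose in 1 (9.09%, against 30.1%). NUDC (−0.30), FKBP5 (−0.25), PPP5C (−0.38) and PPID (−0.25) fell, and SUGT1 (0.15) rose. FKBP5, an immunophilin of steroid receptors, fell from 3282 ± 115 to 2750 ± 46.1 (SD, n = 3; limma, adjusted p = 0.0062). SUGT1 passed as deposited and with neither quantile normalization nor median centring.

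Other HSP70 partners rose in 3 of 12 (25%, against 30.1% of all genes) and fell in 3 (25%, against 18.9%). BAG2, an inhibitor of the ubiquitin ligase CHIP, fell from 940 ± 29.3 to 676 ± 5.45 (SD, n = 3; −0.47; limma, adjusted p = 0.00038). BAG6, which takes charge of membrane proteins that miss their target, fell by 0.39. Its plain probe sets, those with neither _s_at nor _x_at, gave 0.18 and did not pass. HSPA14 fell by 0.19, though not as the mean of its probe sets. HSPA13 (0.38), HSPA4L (0.19) and BAG4 (0.15) rose. Other J proteins rose in 8 of 25 (32%, near the share of all genes), those with the smallest adjusted p being DNAJC27 (0.45) and DNAJC30 (0.26), and fell in 4, DNAJA2 (−0.19), DNAJB5 (−0.24), DNAJC14 (−0.17) and DNAJA4 (−0.23). With quantile normalization and with median centring alike, 5 rose and 6 fell.

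Prefoldin hands nascent actin and tubulin to TRiC. In a list of prefoldin genes and relatives such as URI1, UXT and PDRG1, 5 of 8 measured genes rose (62.5%, against 30.1% of all genes) and 0 fell. PFDN4 rose from 2254 ± 100 to 2925 ± 8.68 (SD, n = 3; 0.37; limma, adjusted p = 0.0014). PFDN1 (0.17), VBP1 (0.16), PDRG1 (0.15) and PFDN5 (0.14) were the others. This count depends on scaling: 3 rose with quantile normalization, and 1 rose and 1 fell with median centring. Among 3 helpers of TRiC, TXNDC9 fell (−0.38) and none rose, and on plain probe sets alone TXNDC9 gave 0.59.

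Of 8 mitochondrial partners HSCB (0.37) and LONP1 (0.22) rose and TIMM44 (−0.21) fell. That is 25% higher and 12.5% lower, against 30.1% higher and 18.9% lower among all genes. Of 6 relatives in the endoplasmic reticulum SERPINH1 (0.61) and DNAJB9 (0.36) rose, and DNAJB11 (−0.25) and HYOU1 (−0.22) fell. Each way this is 33.3%, against the same shares of all genes. HSPA5 (0.00) and HSP90B1 (0.05), the HSP70 and HSP90 of that compartment, did not pass. Small heat shock proteins (2 tested) and HSF relatives (2 tested) had no call.

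**Figure D3:**
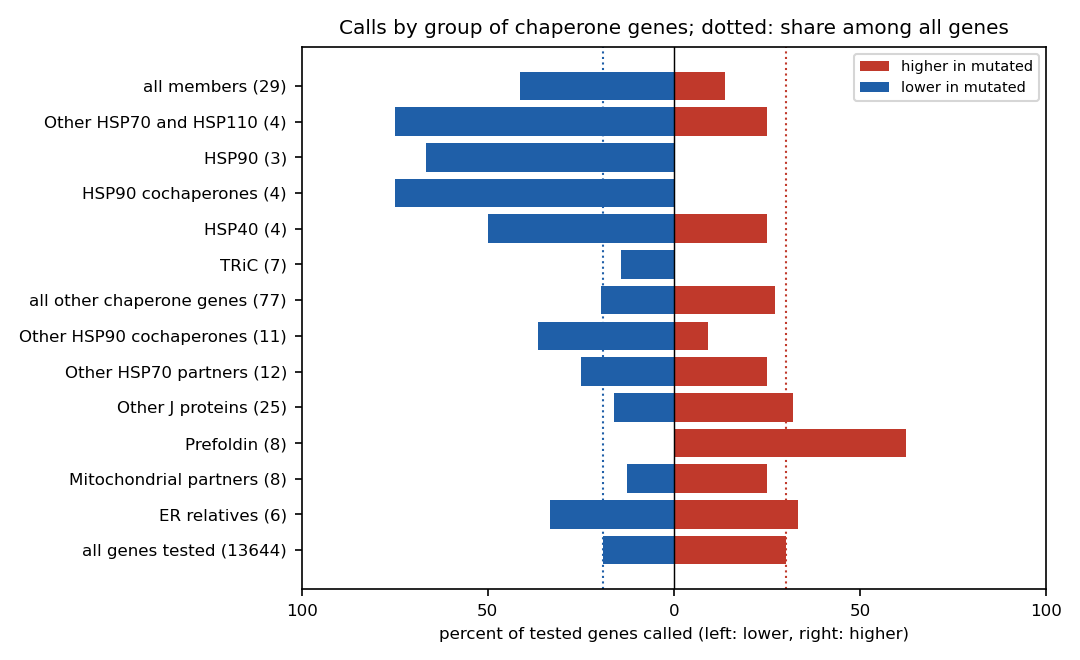
Percent of tested genes called lower (bars to the left) and higher (to the right) in mutated cells for groups of chaperone genes, with the number tested in brackets; dotted lines mark the shares among all 13644 genes, 18.9% lower and 30.1% higher. All members together reach 41.4% lower and 13.8% higher, the other chaperone genes 19.5% and 27.3%, and several groups hold under 10 genes.

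**Figure D4:**
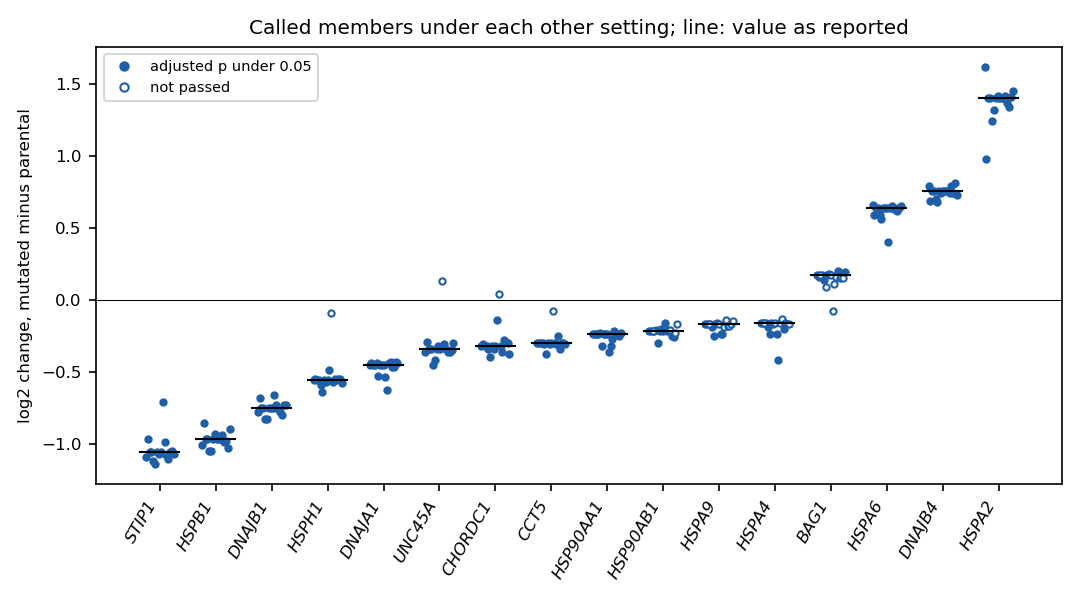
Log2 change (vertical axis) of the 16 called members under the 17 other settings, or 16 for STIP1, HSPB1, DNAJB1, HSPA2 and UNC45A. Each point is 1 setting, filled where the limma adjusted p was under 0.05, and the black line is the value as reported. STIP1, HSPB1, DNAJB1, DNAJA1, HSP90AA1, HSPA6, DNAJB4 and HSPA2 have filled points only, while BAG1, UNC45A and CHORDC1 have 1 point on the other side of 0.

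Array medians ran from 28.5 to 31.8. Pearson's r across probe sets, which are not independent replicates, ran from 0.994 to 0.996 among arrays of 1 group and from 0.967 to 0.970 across the groups. Summed over the brightest probe set of each of 4 measured B cell markers, intensity was 18317 to 19177 in parental and 19310 to 19891 in mutated cells, without overlap; CD79B (0.63) and CD79A (0.23) rose, and MS4A1 and PAX5 did not pass. The sum over 5 plasma cell markers was 9516 to 10065 and 8952 to 9779, with PRDM1 (−1.59) and SDC1 (−0.87) falling, MZB1 (0.48) rising, and IRF4 and XBP1 not passed. Markers of other cell types summed to 57.0 to 64.1 and 56.0 to 61.5 (4 myeloid) and to 65.1 to 69.6 and 67.2 to 79.0 (4 T cell). Epithelial markers gave 88.8 to 111 and 70.7 to 92.3, fibroblast markers 680 to 767 and 417 to 505, and endothelial markers 348 to 350 and 546 to 611. In the last 2 lists only COL1A1 (−0.67) and PECAM1 (0.72) were bright enough to test, and both sums differed between the groups without overlap. The part of all these markers in the chaperone results was not tested.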

How the data were processed

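The authors deposited 1 linear intensity for each probe set and array. Probe summary, background correction and normalization: not given in the sources used here; detection calls were not used. Per the labels, biotin-labelled cRNA was made by in vitro transcription. Of 54613 probe sets, 41091 have 1 gene symbol in the platform annotation. Values were taken as log2(intensity + 16), which understates changes of dim genes. The dimmest 40% by mean over all 6 samples were left out, which removed those with a mean log2 value under 5.09. The other 32768 were fitted with limma 3.58.1 under R 4.3.3 (lmFit and eBayes, two-sided), modelling group alone, with Benjamini-Hochberg adjustment, threshold 0.05. The members and lists were chosen with earlier results of these data known. Every member is named, with per-sample values for those past the threshold; of other lists, up to 2 genes each way with the smallest adjusted p, or all where 5 or fewer moved. Promoters are RefSeq's, GRCh38.p14. The fit was tested on simulated data. Figures used matplotlib 3.10.9 in Python 3.11.15.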

Additional observations from a re-analysis of the deposited data

How the results depend on the processing

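Other settings were pseudocounts of 1 and 64, no filter or the dimmest 60% left out, quantile normalization, median centring, eBayes with trend and robust options, array weights, a replicate block, gene values averaged over probe sets, only plain probe sets (neither _s_at nor _x_at), and each sample left out. With plain probe sets 19 members could be tested: 6 genes fell and 3 rose, with a median of −0.068. Of their 24 probe sets 7 fell and 3 rose. Of 56 other chaperone genes 8 fell and 16 rose. Of all genes, 17.6% fell and 31.1% rose with plain probe sets. There CHORDC1 gave 0.04, HSPD1 0.49, TXNDC9 0.59 and BAG6 0.18. As means of probe sets, UNC45A gave 0.13, BAG1 −0.08, HSPA14 0.08 and DNAJC15 −0.11. On their brightest probe sets these genes gave −0.34, 0.17, −0.19 and 0.22, each of the opposite sign. With median centring the member median was −0.20 and 10 other chaperone genes rose, where 22.4% of all genes rose. Leaving out 1 sample, 9 to 11 of 29 members fell and 3 to 4 rose. Of all genes, 14.9% to 18.8% fell and 25.2% to 28.8% rose in these fits. The member median ran from −0.139 to −0.108. Of 59 member probe sets 6 to 8 rose and 21 to 25 fell. The shares of all probe sets were counted only for the fit as reported, where 30.9% rose and 16.6% fell. Among 77 other chaperone genes 11 to 16 rose and 11 to 15 fell. The replicate block left 10 members lower and 3 higher, and 12 other chaperone genes higher. With it 17.8% of all genes were lower and 28.1% higher. Deviations of same-numbered samples correlated at 0.110, 0.0266 and 0.112, and those of differently numbered samples from −0.11 to 0.00278. Each sample correlated best with its own number, and whether the numbers pair the samples cannot be told from these values. The causes were not tested. With 6 arrays, precision is limited, most of all for dim probe sets.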
